A study of Mus musculus with 6 samples.

Results

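The metallothionein genes Mt1 and Mt2 were followed in RNA-seq of mouse liver. They were chosen by symbol, as 2 of the 24411 genes in the table. The libraries came from livers of 3 p62+/+ (wild-type) and 3 p62S351E/+ mice, all at postnatal day 19. The p62S351E/+ mouse carries 1 knock-in allele of Sqstm1, which encodes p62, with glutamate in place of Ser351 to mimic phosphorylation there. The knock-in mice descended by in vitro fertilization from a single chimeric male made with prime-edited embryonic stem cells of C57BL/6N origin. Each library is a separate mouse, and the labels give neither sex nor batch.

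Metallothioneins are small cysteine-rich proteins that bind zinc and copper in the cytosol. In liver their genes are induced by zinc through the transcription factor MTF1, and also by glucocorticoids, inflammatory cytokines, oxidative stress and fasting. Mt1 and Mt2 are the forms made in liver and in most other tissues. Mt3 is made mainly in brain, and Mt4 in stratified epithelium. Phosphorylated p62 holds KEAP1, the inhibitor of the antioxidant transcription factor NRF2, and the comparison asks how liver transcripts differ when that phosphorylation is mimicked.

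Mt1 and Mt2 lie side by side on the plus strand of chromosome 8. In the GENCODE annotation of GRCm38, the assembly of mm10, Mt2 spans 94172664 to 94173568 and Mt1 spans 94179082 to 94180327, with 5513 bases between them. Mt3 (94152607 to 94154146) and Mt4 (94137197 to 94139031) precede them. The reference transcripts Mt1-201 (549 bases) and Mt2-201 (511 bases) have 3 exons each and encode 61 amino acids. Their coding sequences were identical at 148 of 186 bases (79.6%), and the longest run that both transcripts share is 20 bases, shorter than the 75-base reads. All counts of Mt1 and Mt2 were whole numbers. No stretch of read length in Mt1-201 occurred in a transcript of another gene, on either strand. In Mt2-201, 141 of 437 such stretches lay in Gm45774, a gene annotated on the opposite strand, and reads of the 2 cannot be told apart unless strand was used in counting, which the sources used here do not state.

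The bases before the annotated start sites are shown because metal response elements, the sites of MTF1, are a known feature of both promoters. The sequences are RefSeq promoters of GRCm38.p6, 5′ to 3′ on the plus strand, from chr8:94178839-94179081 for Mt1 and chr8:94172368-94172617 for Mt2. The Mt1 stretch stops short of the GENCODE start at 94179082. Bases from there up to the RefSeq start at 94179089 were searched but are not printed. Capitals mark the metal response element cores TGCACNC and TGCGCNC on either strand.
Mt1: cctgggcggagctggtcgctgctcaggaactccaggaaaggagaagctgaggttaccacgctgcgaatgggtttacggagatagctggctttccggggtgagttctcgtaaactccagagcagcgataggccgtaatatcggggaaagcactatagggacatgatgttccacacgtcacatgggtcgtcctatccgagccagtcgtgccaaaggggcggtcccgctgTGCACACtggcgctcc
Mt2: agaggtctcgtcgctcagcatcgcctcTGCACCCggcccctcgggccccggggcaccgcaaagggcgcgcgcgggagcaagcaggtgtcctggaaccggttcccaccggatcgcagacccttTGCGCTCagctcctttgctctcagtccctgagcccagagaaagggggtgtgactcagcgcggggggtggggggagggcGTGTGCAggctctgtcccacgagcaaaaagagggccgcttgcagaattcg

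The first 30 bases from the RefSeq start sites hold further cores and are shown for that reason (chr8:94179089-94179118 and chr8:94172618-94172647).
Mt1: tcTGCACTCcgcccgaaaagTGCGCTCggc
Mt2: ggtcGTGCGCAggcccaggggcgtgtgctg

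In the whole RefSeq window, 250 bases before and 50 after the start site, Mt1 held 3 cores and Mt2 held 4, none overlapping another match. Positions and counts hold for the annotated RefSeq start sites, which were not checked against reads of these livers. Of 32851 promoter windows of this length, 25.7% held at least 1 core, 1.97% held at least 3 and 0.517% held at least 4. Within these windows the antioxidant response element core TGACNNNGC, a form of the NRF2 site, occurred once. It lay in Mt2 at 79 bases before the start site as TGACTCAGC, and 12.4% of all windows held it. The letters AGAACA (glucocorticoid receptor, in 19% of windows), TTCNNNGAA (STAT factors, 8.3%) and CACGTG (E-box, 7.15%) were in neither window on either strand. These are matches of letters and not measured binding. Bases outside the windows were not searched, so a motif absent here, such as the NRF2 core for Mt1, may lie elsewhere in the gene.

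The expected counts, which are RSEM's estimates of reads per gene, summed to between 8696710 and 10341600 per library, but only 134911 to 315436 lay outside Rn45s, Lars2 and Mir6236. This small remainder sets the precision for the metallothioneins. The 10 hepatocyte markers, such as Alb, summed to between 11676 and 27540 counts, and were high in every library. The 10 brain markers, such as Snap25 and Gfap, summed to between 2281 and 2607 counts in 4 libraries, those of the p62+/+ mice and p62S351E/+ mouse 3, but to 19 and 31 in p62S351E/+ mice 1 and 2, where Snap25, Gfap, Stmn2, Camk2a and Aldoc were all at 0. How brain transcripts came to be in liver libraries was not tested. Xist, transcribed in females, stood at 70.8, 1505 and 1071 counts in p62+/+ mice 1 to 3 and at 1, 0 and 1537 in p62S351E/+ mice 1 to 3.

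Neither Mt1 nor Mt2 changed between the genotypes by the test used here, and both had lower means in p62S351E/+ mice. Mt1 had 66.6 ± 37.4 normalized counts in p62+/+ mice and 43.1 ± 7.68 in the knock-in (SD, n = 3 each). Mt2 had 33.7 ± 17.4 and 18.1 ± 5.38 (SD, n = 3 each). Normalized counts are expected counts scaled to a common library size by edgeR's TMM factors.

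By mouse, Mt1 had 34, 131 and 82 raw counts in p62+/+ mice 1 to 3, which are 27.3, 102 and 70.8 normalized counts. In p62S351E/+ mice 1 to 3 it had 18, 38 and 61 raw counts, or 34.3, 47.9 and 47.3 normalized counts. The p62+/+ mice held both the lowest and the highest value of all 6, so the groups overlapped completely. All p62S351E/+ values lay below p62+/+ mice 2 and 3 and above p62+/+ mouse 1. The log2 fold change of Mt1, p62S351E/+ over p62+/+, was -0.62 with a standard error of 0.43, and the adjusted p by edgeR's quasi-likelihood test was 0.524. Its 95% interval ran from -1.63 to 0.39, or from 0.323-fold to 1.31-fold.

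Mt2 had 19, 64 and 42 raw counts in p62+/+ mice 1 to 3, which are 15.2, 49.7 and 36.3 normalized counts. In p62S351E/+ mice 1 to 3 it had 7, 19 and 22 raw counts, or 13.3, 23.9 and 17.0 normalized counts. The order was nearly that of Mt1, with p62+/+ mice 2 and 3 above all others, but the lowest value was that of p62S351E/+ mouse 1. The log2 fold change of Mt2 was -0.88 ± 0.43 (SE; edgeR adjusted p = 0.378), with a 95% interval from -1.87 to 0.10, or from 0.274-fold to 1.07-fold. The interval therefore spans both a fall to 0.274 of the p62+/+ level and no change, and these data do not show that the genotypes are alike. Exact two-sided permutation tests over the 6 mice gave p = 0.4 for Mt1 and p = 0.3 for Mt2, where 3 mice against 3 cannot give less than 0.1. Over all 5945 genes tested, 0.925% passed the thresholds of adjusted p below 0.05 and absolute log2 fold change above 1, and only 0.0841% did so as lower.

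**Figure D1:**
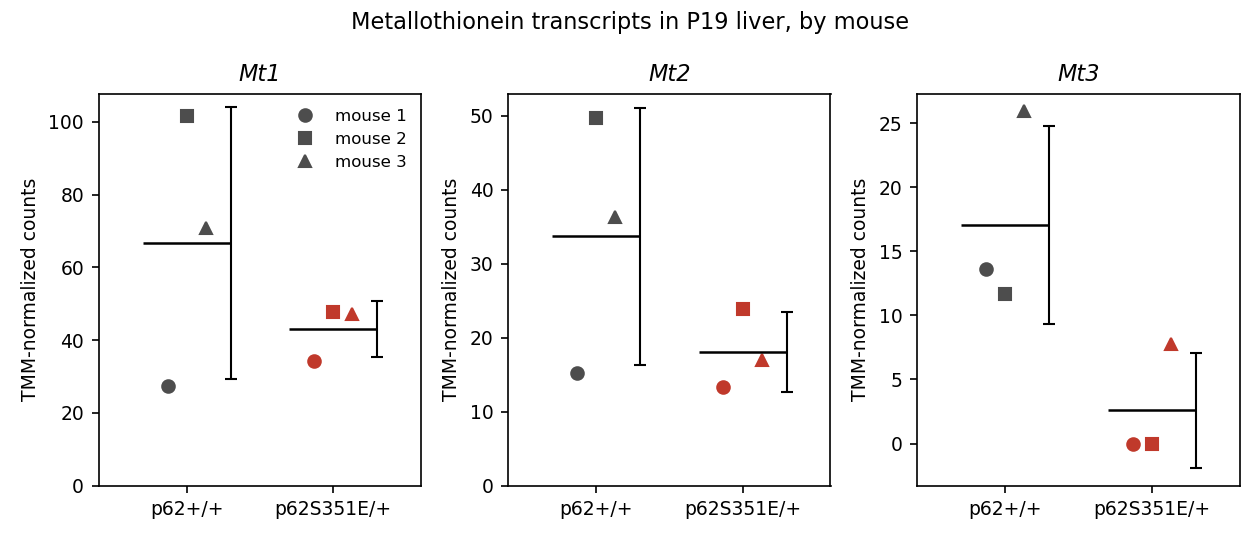
TMM-normalized counts of Mt1, Mt2 and Mt3 in each mouse (circle, mouse 1; square, mouse 2; triangle, mouse 3), with the mean as a horizontal line and the SD as a bar (n = 3 per genotype). For Mt1 and Mt2 the p62+/+ mice span the p62S351E/+ mice or nearly so, with p62+/+ mouse 1 at 27.3 and 15.2 and p62+/+ mouse 2 at 102 and 49.7 normalized counts.

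The spread of the metallothioneins lay mainly within the wild type. The highest p62+/+ mouse had 3.73 times the Mt1 level and 3.26 times the Mt2 level of the lowest, whereas among p62S351E/+ mice the same ratios were 1.40 and 1.80. The coefficient of variation in p62+/+ mice was 56.1% for Mt1 and 51.5% for Mt2. Counting error alone at these depths would give 11% and 15.5%. Among the 2509 tested genes with a mean of at least 20 normalized counts, the median coefficient of variation in p62+/+ mice was 15.6%, and 98.3% of these genes varied less than Mt1 and 97.8% less than Mt2. In p62S351E/+ mice the coefficients were 17.8% for Mt1 and 29.7% for Mt2, close to the counting error of 16.0% and 25.0% and on either side of the median of 26.6%. Whether the spread itself differed between the genotypes was not tested.

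The size of the difference depended on which wild-type mice were included. Without p62+/+ mouse 2, the highest, the log2 fold change fell in size to -0.17 for Mt1 and -0.49 for Mt2. Without p62+/+ mouse 1, the lowest, it was -0.99 and -1.23. The adjusted p by edgeR was 0.888 and 0.735 in the first case and 0.373 and 0.322 in the second, where the unadjusted 95% intervals, -1.67 to -0.31 and -2.02 to -0.44, lay below 0.

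Mt1 and Mt2 varied together, and Mt2 made up the smaller share in every liver. Across the 6 libraries their log2 normalized counts had a Pearson r of 0.95, a description over libraries that share their scaling with each other. The share of Mt2 in the summed Mt1 and Mt2 counts does not depend on any scaling. It was 35.8%, 32.8% and 33.9% in p62+/+ mice 1 to 3 and 28.0%, 33.3% and 26.5% in p62S351E/+ mice 1 to 3. The Wilson 95% intervals, which cover counting error only, overlapped between all mice, from the narrowest, 26.6% to 39.7% in p62+/+ mouse 2, to the widest, 14.3% to 47.6% in p62S351E/+ mouse 1. The mean share was 34.2% ± 1.54 in p62+/+ mice and 29.3% ± 3.59 in the knock-in (SD, n = 3 each). The mean log2 ratio of Mt2 to Mt1 was lower by 0.33 in p62S351E/+ mice (log2 difference -0.33, exact two-sided permutation p = 0.2). Per kilobase of transcript, Mt2 stood at 0.559 ± 0.0384 of the Mt1 level in p62+/+ mice and at 0.447 ± 0.0791 in the knock-in (SD, n = 3 each). By these counts Mt1 was the more abundant of the pair per length in each mouse. Reads from the stretches that Mt2 shares with Gm45774 could shift the share and this ratio, and by how much was not tested.

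Set against hepatocyte transcripts instead of the whole library, the metallothioneins were lower on average in p62S351E/+ mice. This scale also carries differences in its denominator, which was higher in the knock-in. The normalized sum of the hepatocyte markers was 14286 to 15380 in p62+/+ mice and 15880 to 34698 in p62S351E/+ mice. Mt1 and Mt2 together made 2.77, 10.6 and 7.31 counts per 1000 hepatocyte-marker counts in p62+/+ mice 1 to 3. The values were 2.14, 2.07 and 4.05 in p62S351E/+ mice 1 to 3. On this scale p62+/+ mouse 1 stood among the p62S351E/+ mice, above 2 of them and below mouse 3. The lowest value was that of p62S351E/+ mouse 2, which by normalized counts stood above p62+/+ mouse 1 (71.8 against 42.5). The difference of the log2 means was -1.19 (exact two-sided permutation p = 0.2). With Alb alone as the denominator it was -1.28 (exact two-sided permutation p = 0.2). In such bulk samples fewer cells of a type and less RNA per cell cannot be told apart.

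**Figure D2:**
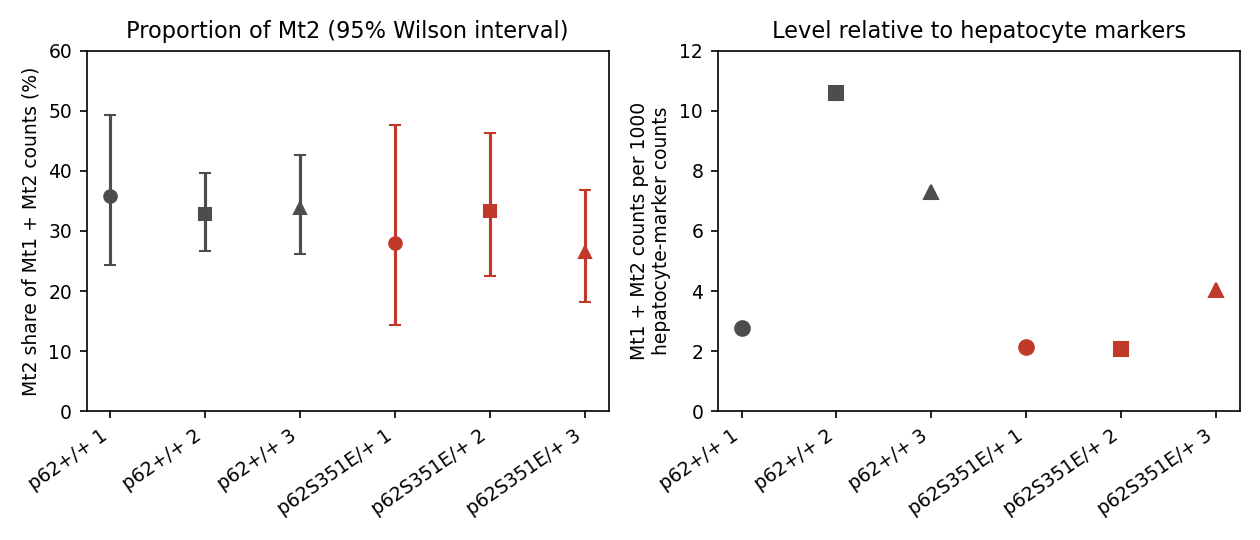
Left, the share of Mt2 in the summed Mt1 and Mt2 counts of each mouse (percent, bars are 95% Wilson intervals). Right, summed Mt1 and Mt2 counts per 1000 counts of the 10 hepatocyte markers. The shares lie between 26.5% and 35.8% with overlapping intervals, while the level on the right ranges from 2.07 to 10.6 and is highest in p62+/+ mice 2 and 3.

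Summed marker counts of the cell types of liver differed between the libraries to unequal degrees. The normalized sum of the 10 hepatocyte markers ran from 14286 to 15380 in p62+/+ mice and from 15880 to 34698 in p62S351E/+ mice, with mouse 3 the lowest of the latter. None of the 10 passed by edgeR, 9 had log2 fold changes above 0, and 3 had an unadjusted p below 0.05, as did 14.6% of all genes tested. Stellate cell markers had sums from 156 to 274 in the wild type and from 95.8 to 143 in the knock-in. Of 4 tested, Col3a1 (-1.94) and Col1a1 (-1.62) were lowest by log2 fold change and Reln was at 0.05. Erythroid markers summed to between 137 and 197 and between 58.5 and 133, mainly through Hba-a1, a globin gene with a near-identical copy, whereas 3 of the 4 tested had log2 fold changes above 0. Kupffer cell markers summed to between 48.9 and 71.7 and between 72.8 and 97.0, a difference to which Marco contributed most, and 2 of 4 tested lay below 0. Those of sinusoidal endothelium (128 to 199 and 136 to 202) and bile duct (23.3 to 82.9 and 24.0 to 70.5) overlapped. None of the markers tested passed by edgeR, and Marco had too few counts to be tested by it. By DESeq2 1 stellate cell marker passed, and by limma-voom 1 stellate cell and 1 hepatocyte marker. The part of these cell types in the metallothionein levels was not tested.

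Brain tissue is also known to make Mt1 and Mt2, chiefly in astrocytes. Among p62S351E/+ mice the 2 libraries with almost no brain markers had 34.3 and 47.9 normalized counts of Mt1, against 47.3 in mouse 3, which held them. Mt2 had 13.3 and 23.9 in those libraries, against 17.0 in mouse 3. Mouse 3 alone, set against the p62+/+ mice that also held brain markers, gave log2 fold changes of -0.49 for Mt1 (adjusted p = 0.939, edgeR) and -0.97 for Mt2 (adjusted p = 0.772, edgeR). With the brain-marker sum as a covariate they were -0.47 and -0.94 (adjusted p = 0.977 and 0.875, edgeR). Xist was likewise uneven, and the 3 libraries with more than 1000 counts of it, p62+/+ mice 2 and 3 and p62S351E/+ mouse 3, had the 3 highest metallothionein values relative to hepatocyte markers. On the TMM scale this order did not hold, since the summed Mt1 and Mt2 level was 71.8 in p62S351E/+ mouse 2, with 0 counts of Xist, and 64.3 in mouse 3. With Xist as a covariate, the log2 fold changes were -0.23 for Mt1 and -0.69 for Mt2 (adjusted p = 0.918 and 0.740, edgeR).

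The brain form Mt3 was detected in 4 libraries. It had 17, 15 and 30 raw counts in p62+/+ mice 1 to 3 and 0, 0 and 10 in p62S351E/+ mice 1 to 3. It was at 0 in the 2 libraries that lacked brain markers. With p62S351E/+ mouse 3 in the test its fitted log2 fold change was -2.34 ± 1.01 (SE; edgeR adjusted p = 0.35), a size that depends on how counts of 0 are treated. Without that mouse the fit gave an adjusted p of 0.000717 (edgeR), with both remaining p62S351E/+ libraries at 0. Mt4 was at 0 in all 6 libraries, which allows up to 3 counts in each.

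The zinc transporters did not pass the test in either direction. Of 10 zinc exporters of the Slc30a family, 4 had enough counts to be tested and 0 passed, and of 14 zinc importers of the Slc39a family, 5 were tested and 0 passed. In both families 0 genes had an unadjusted p below 0.05 by edgeR, and 0 passed by DESeq2 or limma-voom. Over all genes tested by edgeR, 14.6% had such a p and 0.925% passed, so counts of 0 among so few genes say little about them. The median log2 fold change was -0.26 for the exporters and -0.09 for the importers, beside -0.03 for all genes tested.

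Slc30a1, the plasma membrane zinc exporter that is a target of MTF1 like Mt1 and Mt2, had 8.83, 18.6 and 9.14 normalized counts in p62+/+ mice 1 to 3 and 7.62, 6.30 and 4.65 in p62S351E/+ mice 1 to 3. All p62S351E/+ mice lay below all p62+/+ mice, as was the case for 14.7% of genes tested. Its log2 fold change was -1.03 ± 0.46 (SE; edgeR adjusted p = 0.35), from at most 24 raw counts. Slc39a14, a zinc and iron importer of hepatocytes, had 93.1, 113 and 96.7 normalized counts in p62+/+ mice 1 to 3 and 66.6, 102 and 72.0 in p62S351E/+ mice 1 to 3. Its groups overlapped through p62S351E/+ mouse 2, and its log2 fold change was -0.33 ± 0.23 (SE; edgeR adjusted p = 0.524). Slc30a9, Slc30a7 and Slc39a7, zinc transporters of intracellular membranes, had log2 fold changes of -0.44, -0.08 and -0.09, with adjusted p of 0.592, 0.920 and 0.924 (edgeR). Mtf1, encoding the zinc-sensing activator itself, was too low to be tested, at 15, 11.2 and 5.5 raw counts in the wild type and 2, 4 and 9 in the knock-in mice.

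Of the 12 genes of metal-responsive transcription and copper handling, 5 were tested and 0 passed by edgeR, DESeq2 or limma-voom, with 0 at an unadjusted p below 0.05. The edgeR shares over all genes tested were 0.925% and 14.6%. The list's median log2 fold change was 0.58. Cp, which encodes the secreted copper protein ceruloplasmin, had 269 ± 65.4 normalized counts in p62+/+ mice and 457 ± 228 in the knock-in (mean ± SD of 3 mice each; log2 fold change 0.76, adjusted p = 0.364, edgeR). Slc31a1, the copper importer, had 20.1 ± 1.57 and 30.1 ± 15.6 (mean ± SD of 3 mice each; log2 fold change 0.58, adjusted p = 0.468, edgeR), and p62S351E/+ mouse 2 alone exceeded the others by far, at 47.9.

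Genes of the signals known to induce metallothioneins were compared in the same way. Of 13 glucocorticoid-responsive genes tested, 2 rose and 0 fell, and the list's median log2 fold change was 0.14. They were Tdo2, tryptophan dioxygenase (115 ± 11.9 to 388 ± 95.6 normalized counts, mean ± SD of 3 mice each; log2 fold change 1.76, adjusted p = 0.0181, edgeR), and Hsd11b1, which regenerates active glucocorticoid inside hepatocytes (68.7 ± 12.8 to 184 ± 40.8, mean ± SD of 3 mice each; log2 fold change 1.42, adjusted p = 0.0456, edgeR). The share of all genes called higher was 0.841%. Leaving out a mouse ended the call of Hsd11b1 in 5 of 6 fits and that of Tdo2 in 4 of 6, with all 3 p62+/+ mice among them for both genes, at adjusted p of 0.0829 to 0.246 and 0.0772 to 0.147 (edgeR). Other settings also ended calls, as listed in the closing section. The summed hepatocyte markers, given above, were higher in p62S351E/+ livers too, though none passed by edgeR, and their part in these changes was not tested. Nr3c1, the glucocorticoid receptor, differed little, with a log2 fold change of -0.11 ± 0.22 (SE; edgeR adjusted p = 0.819).

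Of 13 acute phase and IL-6 response genes tested, 0 passed by edgeR, DESeq2 or limma-voom and 3 had an unadjusted p below 0.05 by edgeR, as did 14.6% of all genes tested. The list's median log2 fold change was 0.34, and the fibrinogen chains Fga and Fgb had 0.49 and 0.44 (adjusted p = 0.414 and 0.445, edgeR). Of 12 fasting and PPARα target genes tested, 0 passed by edgeR, 2 by DESeq2 and 4 by limma-voom (0.418% and 2.27% of all genes by these tools), with 7 at an unadjusted p below 0.05 by edgeR and a median log2 fold change of 0.82. Pck1, the gluconeogenic enzyme, had 419 ± 147 normalized counts in p62+/+ mice and 1168 ± 285 in the knock-in (mean ± SD of 3 mice each; log2 fold change 1.48, adjusted p = 0.0878, edgeR). It passed by DESeq2 (adjusted p = 0.0119) and limma-voom (adjusted p = 0.0121).

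NRF2 targets, the antioxidant and detoxification genes that KEAP1 holds down, were listed with earlier results of these data known, so their count is not independent evidence of a direction. Of 14 tested, 8 rose and 0 fell, with a median log2 fold change of 2.56. Over all genes tested 0.841% were called higher and 0.0841% lower by edgeR. Among the NRF2 targets Abcc4, an efflux transporter, went from 3.72 ± 2.28 to 65.5 ± 15.9 normalized counts (SD, n = 3 each). Cbr3, a carbonyl reductase, went from 0.526 ± 0.456 to 47.9 ± 2.54 (SD, n = 3 each). Gstm1 and Cbr1 had log2 fold changes of 3.59 and 3.64 (adjusted p = 0.00051 and 0.000456, edgeR). The tested members of this list differed widely, with log2 fold changes from 0.02 (Me1) to 6.19 (Cbr3). The 95% intervals of Mt1 and Mt2, with all 6 mice in the test, end at 0.39 and 0.10. Whether NRF2 acts on Mt1 or Mt2 in these livers was not tested.

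Genes of other stress responses did not pass. Of the integrated stress response genes 2 of 8 were tested, Atf4 (log2 fold change 0.00, adjusted p = 0.996, edgeR) and Atf5 (1.02, adjusted p = 0.133, edgeR), and 1 had an unadjusted p below 0.05. Of 7 heat shock genes 3 were tested and 0 had an unadjusted p below 0.05. Over all genes tested by edgeR, 14.6% had such a p and 0.925% passed. By DESeq2 or limma-voom 0 genes of either list passed. Hspa8, the constitutive HSP70 chaperone, had a log2 fold change of 0.29 (adjusted p = 0.554, edgeR). Hsp90aa1 had one of -0.89 (adjusted p = 0.356, edgeR), and was at 40.0 and 50.4 normalized counts in the p62S351E/+ mice that lacked brain markers against 125 to 137 in the other 4 libraries. Without p62S351E/+ mouse 3, the knock-in library with brain markers, 20.5% of 6390 genes tested passed, 5.21% as higher and 15.3% as lower. In that fit 12 of 14 NRF2 targets, 6 of 12 fasting genes, 3 of 13 glucocorticoid-responsive genes, 2 of 13 acute phase genes, 1 of 6 copper genes and 1 of 2 integrated stress response genes passed as higher. Of 3 heat shock genes 1 passed as lower, and 0 of 5 zinc exporters and 0 of 6 zinc importers passed. Among the markers, 9 of 9 brain and 1 of 4 stellate cell markers passed as lower, and 4 of 10 hepatocyte markers as higher. Genotype cannot be told apart from brain RNA in this fit, since all its p62+/+ libraries held brain markers and its p62S351E/+ libraries almost none.

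**Figure D3:**
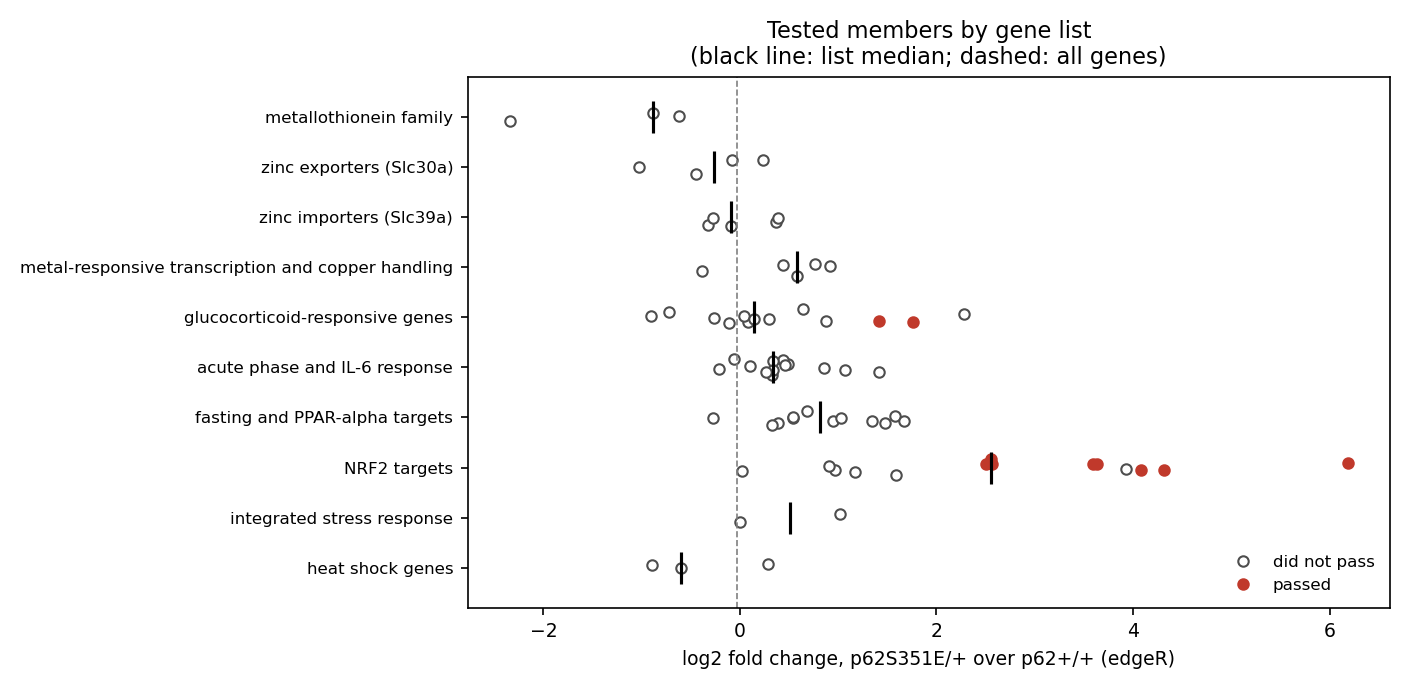
Log2 fold change, p62S351E/+ over p62+/+, of each tested gene by list (edgeR; filled red, passed; open, did not pass), with the list median as a black line and the median of all genes tested as a dashed line. The metallothioneins lie left of the dashed line at -2.34 (Mt3), -0.88 (Mt2) and -0.62 (Mt1), zinc transporters lie on both sides of it, and passed genes are seen only among NRF2 targets and glucocorticoid-responsive genes.

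The genes whose levels followed the metallothioneins most closely were sought among 705 tested genes with a mean of at least 50 normalized counts, by Pearson r with the mean log2 level of Mt1 and Mt2 over the 6 libraries. The 4 highest were Zfc3h1 (r = 0.76), Trpm7 (0.75), Slc39a14 (0.70) and Ppia (0.70), well below the 0.95 between Mt1 and Mt2. Of these, Slc39a14 had been listed with the zinc importers, and its highest value was likewise that of p62+/+ mouse 2. With 6 libraries and 705 genes these values are a description only. None of the 4 differed between genotypes, with adjusted p from 0.524 to 0.729 (edgeR).

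The direction of Mt1 and Mt2 was the same under every setting that could be run for each. Over 19 alternatives Mt1 was lowest at -1.20, when libraries were scaled by total counts only, and highest at -0.17, without p62+/+ mouse 2. Mt2 ranged from -1.50 to -0.49 over 18 alternatives, with its ends at the same settings. Scaling by total counts only moved the median of all genes to -0.68, and relative to that median Mt1 was at -0.52 and Mt2 at -0.83. The lowest adjusted p over the alternatives was 0.298 for Mt1 and 0.245 for Mt2.

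**Figure D4:**
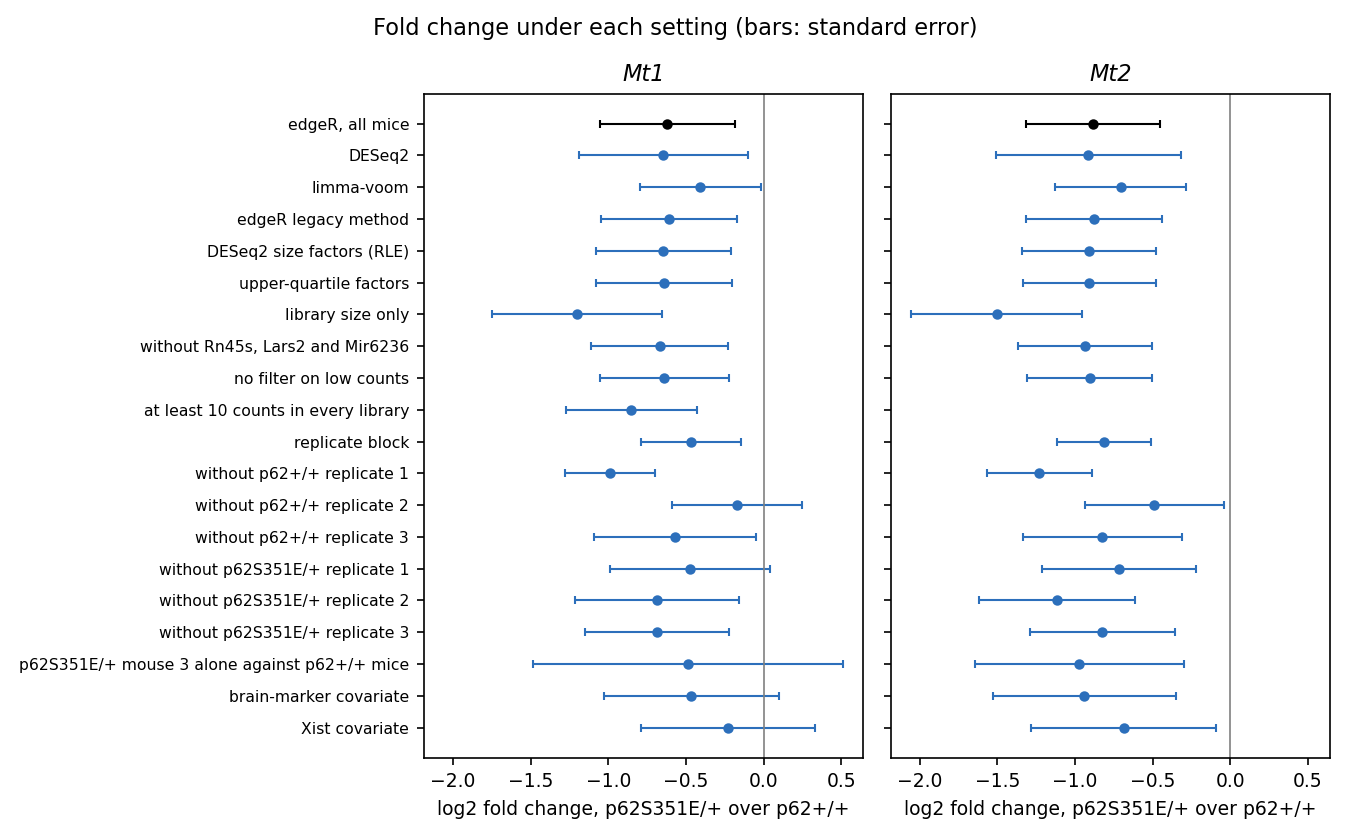
Log2 fold change of Mt1 (left) and Mt2 (right), p62S351E/+ over p62+/+, under each setting (bars are standard errors; black, edgeR with all mice; the vertical line marks 0). All points lie left of 0, from -1.20 to -0.17 for Mt1 and from -1.50 to -0.49 for Mt2.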

How the data were processed

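Total liver RNA was depleted of ribosomal RNA and sequenced as 75-base single-end reads. Per the labels the tools were Trim Galore, STAR, RSEM and DESeq2 with mm10, and the authors deposited RSEM expected counts per gene symbol, without normalization. Versions and the gene annotation are not given in the sources used here. Estimates with decimals made up 6.45% of values above 0, and counts were rounded before testing.

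Genotypes were compared in R 4.3.3 with edgeR 4.0.16 (filterByExpr with a minimum count of 10, TMM factors, robust quasi-likelihood test with legacy set to FALSE, Benjamini-Hochberg adjustment over 5945 genes). Alternatives used limma 3.58.1 and DESeq2 1.42.0. Intervals use the standard error, the absolute log2 fold change over the square root of F. The tests were checked only on simulated counts with the same dispersion for all genes and no difference in brain RNA between libraries. That check does not cover the wide spread of Mt1 and Mt2 or the uneven brain-marker counts seen here. The p-values weigh the difference between genotypes against the spread between these mice. In edgeR that spread was estimated with information shared across genes.

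The members and gene lists were chosen with earlier results of these data known. Named genes were the metallothioneins, Mtf1, Slc30a1, Slc39a14, Nr3c1, up to 4 called members of each list (else up to 2 of the most abundant), and the 4 genes most like Mt1 and Mt2. The rule's other choice from the fasting list is not reported here. Other genes were named after their values were seen.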

Additional observations from a re-analysis of the deposited data

How the results depend on the processing

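Mt1 kept its direction and did not pass the threshold in any of 19 alternatives, nor did Mt2 in any of 18, and Mt2 could not be tested where each library had to hold 10 counts. The 7 to 131 counts of these genes per library limit what could be detected. With one mouse left out, Mt1 lay between -0.99 and -0.17, Mt2 between -1.23 and -0.49, the log2 ratio difference of Mt2 to Mt1 between -0.47 and -0.24, and the level relative to hepatocyte markers between -1.75 and -0.78. The replicate numbers name different mice, whose deviations from the group means correlated at 0.07, -0.09 and 0.00. Whether mice of the same number shared a batch cannot be told from this. The labels give no batch, and uneven brain markers among p62S351E/+ mice enter those deviations. The replicate block gave -0.47 for Mt1 and -0.81 for Mt2 (adjusted p = 0.499 and 0.37, edgeR), and 18 genes higher and 1 lower. The number of genes called, 50 higher and 5 lower, moved more. Genes higher were 122 with limma-voom, 12 with library size only, 79 without a filter, 29 with the brain-marker covariate, 27 with the Xist covariate and 16 to 333 with one mouse left out. Genes lower were 11 with DESeq2, 13 with limma-voom, 8 with the legacy method, 2 with library size only, 10 without a filter, 29 with at least 10 counts in every library, 23 with p62S351E/+ mouse 3 alone, 2 with either covariate, and 1 to 975 with one mouse left out. The 333 and 975 arose without p62S351E/+ mouse 3, the one with brain markers. The cause was not tested. The median of all genes moved to -0.18 with DESeq2 and -0.16 without a filter.

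Among the named genes that passed, Hsd11b1 lost its call with DESeq2 size factors, library size only, the replicate block and either covariate (adjusted p = 0.0525, 0.423, 0.0983, 0.190 and 0.138, edgeR), and Tdo2 with library size only and the replicate block (adjusted p = 0.417 and 0.111, edgeR). Cbr3 had no adjusted p with DESeq2 (log2 fold change 6.44) and so was not called there. Pck1 passed in 5 of 19 alternatives. Of the named genes that did not pass, the sign turned with library size only for Slc31a1 (-0.078), Fga (-0.24), Fgb (-0.30), Hspa8 (-0.38) and Atf4 (-0.65). Atf4, near 0, also turned with DESeq2 (-0.0297), limma-voom (-0.0218), the legacy method (-0.0029), DESeq2 size factors (-0.0172), upper-quartile factors (-0.0092), the 3 largest genes removed (-0.0451), no filter (-0.0261) and at least 10 counts in every library (-0.23). Slc30a9 turned with p62S351E/+ mouse 3 alone (0.11) and the brain-marker covariate (0.11). With one mouse left out the ranges crossed 0 for Slc30a7 (-0.25 to 0.0633), Slc39a7 (-0.36 to 0.12) and Atf4 (-0.12 to 0.20).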
